A study of Mus musculus with 17 samples.

Results

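Aminoacyl-tRNA synthetases join each amino acid to its transfer RNA and so supply the charged tRNAs that ribosomes read. Cytosolic protein synthesis and mitochondrial protein synthesis mostly use separate enzymes from separate nuclear genes, and by convention the mitochondrial gene of a pair carries the suffix 2. Several cytosolic enzymes sit together in a multisynthetase complex, and many cytosolic synthetase genes are known targets of ATF4, the transcription factor of the response to amino acid shortage and other stress.

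The genes described here were chosen by symbol, from a platform annotation that pairs probe sets with genes: a capital letter followed by ars with or without a suffix of 1 or 2, together with Eprs, Farsa, Farsb and Pars2. This gave 35 genes of 18193 with a probe set of their own, of which 19 encode cytosolic and 16 mitochondrial enzymes. Gars and Kars, which encode both forms from the same gene, were counted as cytosolic. The cytosolic genes were Aars, Cars, Eprs, Farsa, Farsb, Gars, Hars, Iars, Kars, Lars, Mars1, Nars, Qars, Rars, Sars, Tars, Vars, Wars and Yars. The mitochondrial genes were Aars2, Cars2, Ears2, Fars2, Hars2, Iars2, Lars2, Mars2, Nars2, Pars2, Rars2, Sars2, Tars2, Vars2, Wars2 and Yars2. The letter before ars is the code of the amino acid, so that Tars encodes threonyl-tRNA synthetase, and Eprs encodes a fused enzyme for glutamate and proline.

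Their RNA was measured in pancreatic islets of untreated C57BL/6 mice with an expression array. Islets of 4 mice were pooled for each of 6 batches, and portions of a pool were taken at 0, 24 and 48 h of culture, per the labels in serum-supplemented F12K medium. The arrays used here were 5 at 0 h (batches 1, 2, 3, 4 and 6), 6 at 24 h and 6 at 48 h, so that batch 5 entered with its later times only. The labels give neither age nor sex of the mice. All 3 times come from the same pools, and the 0 h arrays serve as the control of both later times, so the comparisons with 0 h share them.

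Values are log2 signals, so a difference of 1 is a doubling, and a gene is represented by its probe set with the highest mean over the 17 arrays. Differences are given with the standard error (SE) of the linear model, and a gene rose or fell where limma's p, adjusted over all 45037 probe sets by the Benjamini-Hochberg method, was under 0.05. The arrays had medians between 3.47 and 3.57. The median correlation of an array with the others of its time was between 0.991 and 0.994 except for 0 h replicate 3 and 24 h replicate 5, at 0.987 and 0.988, and results that change without these arrays are given with and without them. The lowest signal of the insulin gene Ins2 on any array was 13.57, and the mean of 11 beta cell markers lay between 9.74 and 10.34, so markers of the labelled tissue were present throughout.

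Most cytosolic synthetase genes rose in culture. No mitochondrial synthetase gene passed in the fit described above, though some passed at 48 h under the other settings given below. At 24 h, 13 of 19 cytosolic genes were higher than at 0 h and 0 were lower, led by Eprs (2.13-fold), Tars (1.99-fold) and Aars (1.93-fold). At 48 h, 12 of the 19 were higher and 0 were lower, and all 12 had also risen at 24 h. Without both arrays that stood apart, 12 synthetase genes were higher at 24 h and 14 at 48 h, mitochondrial genes included. None of the 16 mitochondrial genes passed at either time by limma, but with the replicate block 1 passed at 48 h (Nars2, adjusted p = 0.00656), and likewise 1 passed with complete batches, with the times compared alone or without both arrays that stood apart, and 2 with the mean of probe sets or median centring. Leaving out single replicates gave 0 to 2 at 48 h. At an unadjusted p under 0.05, 1 of the 16 was higher at 24 h and 5 at 48 h, with 0 lower at both times. Over all genes, the unadjusted shares higher were 11.2% and 12.8%, and those lower 14.3% and 13.7%. The mean signals of the cytosolic genes ran from 5.82 to 11.18 and those of the mitochondrial genes from 2.34 to 9.24, with 6 of the 16 at or above the lowest cytosolic gene that rose (6.17). The part of this difference in signal in the counts was not tested.

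The background for these counts is the share of all 18193 genes that were called. Genes called higher made up 5.44% at 24 h and 6.45% at 48 h, and genes called lower 6.66% and 5.27%. Among the 11916 genes with a mean signal above the table's median of 3.52, the shares higher were 7.96% and 9.44%. The median log2 difference of the cytosolic genes was 0.57 at 24 h and 0.54 at 48 h, that of the mitochondrial genes was -0.0078 and 0.035, and that of all genes was -0.0105 and -0.0173. All 19 cytosolic genes had a log2 difference above 0 at both times, between 0.057 and 1.09 at 24 h and between 0.0065 and 0.99 at 48 h. With the probe sets used, only Eprs at 24 h reached a log2 difference of 1. Another probe set of Aars differed by 1.08 at both times, and another of Eprs by 1.30 and 1.15.

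Between 24 and 48 h little further change was measured. Of the 35 genes, 0 passed in either direction by limma, against 0.429% of all genes called higher and 0.33% called lower. At an unadjusted p under 0.05, 4 synthetase genes were higher and 1 was lower, beside 8.1% and 6.07% of all genes. The median log2 difference between these times was -0.0031 for the cytosolic and 0.077 for the mitochondrial genes. The rises of the cytosolic genes were thus measured already at the 24 h harvest.

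**Figure D1:**
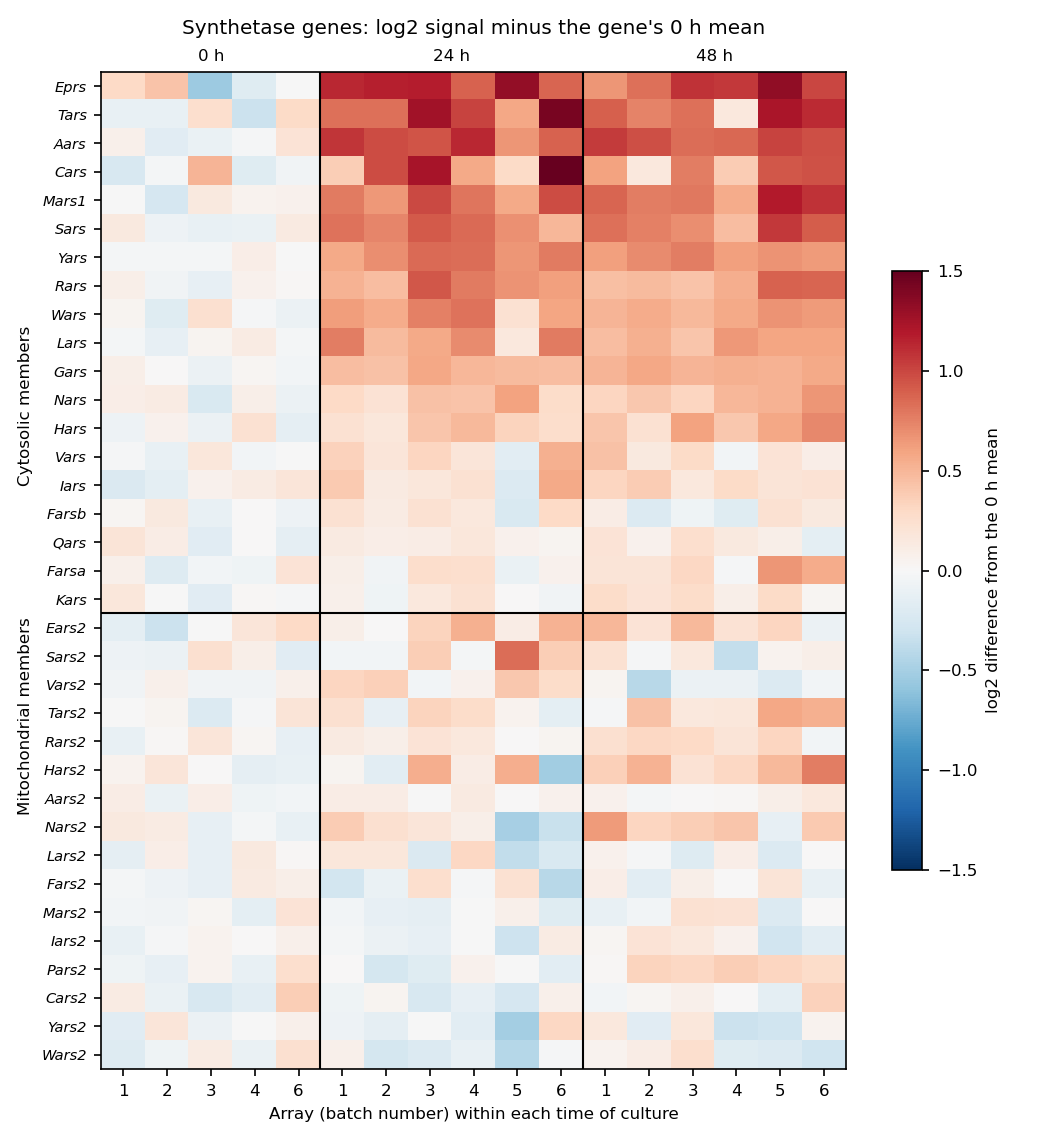
Log2 signal of each synthetase gene (rows) on each of the 17 arrays (columns, by time and batch number), minus the mean of that gene at 0 h. Red is above and blue below the 0 h mean. The upper rows of the 19 cytosolic genes are red on nearly all 24 h and 48 h arrays, and the 16 mitochondrial genes show mixed, paler colours.

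Changes were also read within batches. Of the 19 cytosolic genes, 15 were higher at 24 h than at 0 h in each of the 5 complete batches, and 16 at 48 h. Of the 16 mitochondrial genes, 3 and 4 were. The share over all genes is not given for this measure. All 13 genes that rose at 24 h and all 12 that rose at 48 h were among the cytosolic ones. They were called on these same arrays, so this gives no separate support for their rises. Among the even rises was that of Mars1, whose 24 h differences within batches ran from 0.75 to 0.91. Among the uneven ones was that of Eprs, from 0.73 in batch 2 to 1.72 in batch 3. Cars ran from 0.61 to 1.58. At 24 h replicate 5 was the lowest array for Tars, Aars, Mars1, Wars, Lars and Cars and the highest for Eprs and Nars. Every array at the later time exceeded every 0 h array for 10 cytosolic genes at 24 h and 10 at 48 h. No mitochondrial gene separated in this way at 24 h, and Hars2 did at 48 h. Over all genes, 3.92% separated upward at 24 h and 5.17% at 48 h.

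Promoters of some of these genes hold the core of the element bound by ATF4 with a C/EBP partner, TGATGNAA, where N is any base. The search covered both strands of the RefSeq window of each gene (mouse build GRCm38.p6), from 250 bases before the start of transcription to 50 bases from it on, 300 in all. A window was matched for 26 of the 35 genes, 12 cytosolic and 14 mitochondrial. The motif was found in 5 of the 12 cytosolic windows (41.7%), in 0 of the 14 mitochondrial windows and in 4.51% of the 27025 genes in the table. The stretches below run from 120 bases before the start to 20 bases from it on, and are shown because these are the cytosolic promoters that hold the motif, which is in capitals on either strand. Positions count from 0 at the first transcribed base.
Aars: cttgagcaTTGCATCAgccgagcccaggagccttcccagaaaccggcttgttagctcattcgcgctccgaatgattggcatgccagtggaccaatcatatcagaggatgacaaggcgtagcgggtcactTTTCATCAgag
Gars: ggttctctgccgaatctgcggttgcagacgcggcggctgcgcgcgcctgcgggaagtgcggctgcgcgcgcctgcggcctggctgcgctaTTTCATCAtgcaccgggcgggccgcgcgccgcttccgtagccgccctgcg
Tars: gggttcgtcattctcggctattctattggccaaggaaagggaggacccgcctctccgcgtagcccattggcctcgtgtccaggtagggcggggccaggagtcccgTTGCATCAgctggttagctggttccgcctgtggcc
Yars: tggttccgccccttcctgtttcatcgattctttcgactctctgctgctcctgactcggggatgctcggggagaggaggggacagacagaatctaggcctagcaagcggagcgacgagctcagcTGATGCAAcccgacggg
Iars: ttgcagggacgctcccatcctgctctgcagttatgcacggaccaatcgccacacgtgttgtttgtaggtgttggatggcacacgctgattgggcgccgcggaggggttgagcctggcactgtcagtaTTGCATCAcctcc

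The Aars stretch lies on the forward strand at chr8:111033722-111033861 and holds the motif at positions -112 and 9. The Gars stretch is at chr6:55037881-55038020, forward, with the motif at -30. The Tars stretch is at chr15:11399639-11399778 on the reverse strand, with the motif at -15. All of these genes rose at both times.

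The Yars stretch is at chr4:129189783-129189922, forward, with the motif at position 3, and Yars rose as well. The Iars stretch is at chr13:49682010-49682149, forward, with the motif at 7, and Iars did not pass with the probe set used. Of the 5 cytosolic genes with the motif in the window, 4 rose at each time (median log2 differences 0.73 at 24 h and 0.67 at 48 h). Of the 7 whose window lacks these letters (Eprs, Farsa, Farsb, Kars, Mars1, Qars and Sars), 3 rose at each time (medians 0.13 and 0.32). Of the 7 with no window (Cars, Hars, Lars, Nars, Rars, Vars and Wars), 6 rose at 24 h and 5 at 48 h (medians 0.57 and 0.54). A match describes the letters only, and binding was not measured here.

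Another motif was searched in the same windows. CGCATGCG, the core of the element of nuclear respiratory factor 1, a regulator of genes for mitochondrial proteins, was in 2 of 14 mitochondrial windows (14.3%, Vars2 and Wars2), 0 of 12 cytosolic windows and 2.07% of all genes. The Vars2 stretch is shown as the mitochondrial promoter with a repeated match. It lies at chr17:35667573-35667712 on the reverse strand, with the motif, in capitals, at positions -47 and -21.
Vars2: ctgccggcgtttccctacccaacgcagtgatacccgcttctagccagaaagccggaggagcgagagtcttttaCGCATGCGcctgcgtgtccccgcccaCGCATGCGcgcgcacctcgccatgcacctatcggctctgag

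Among the 7 enzymes of the multisynthetase complex analysed here, 4 rose at 24 h and the same count at 48 h (median log2 differences 0.57 and 0.54). Eprs, which charges tRNAs for glutamate and proline, had 0 h signals of 9.83, 9.97, 8.99, 9.35 and 9.53. Its lowest, median and highest signals were 10.41, 10.68 and 10.86 at 24 h, and 10.20, 10.57 and 10.86 at 48 h. Every later array was above every 0 h array, with 0 h replicate 3 the lowest of all. The log2 difference was 1.09 ± 0.15 (SE) at 24 h (adjusted p = 7.43e-05) and 0.99 ± 0.15 at 48 h (1.99-fold, adjusted p = 0.000267).

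Mars1, the cytosolic methionyl-tRNA synthetase, had 0 h signals of 8.72, 8.47, 8.87, 8.78 and 8.78. For Mars1 the lowest, median and highest signals were 9.29, 9.51 and 9.71 at 24 h, and 9.28, 9.56 and 9.92 at 48 h. The 0 h arrays lay wholly below the later ones, and the 24 h and 48 h arrays overlapped throughout. Mars1 rose by 0.79 ± 0.11 at 24 h (1.73-fold, adjusted p = 8.07e-05) and by 0.88 ± 0.11 at 48 h (1.84-fold, adjusted p = 3.59e-05).

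Rars, the arginyl-tRNA synthetase of the complex, had 0 h signals of 9.30, 9.17, 9.10, 9.28 and 9.24. The lowest, median and highest signals of Rars were 9.68, 9.86 and 10.14 at 24 h, and 9.65, 9.73 and 10.10 at 48 h. No later array reached down to the 0 h arrays. The differences were 0.66 ± 0.10 (1.58-fold, adjusted p = 0.00019) and 0.61 ± 0.10 (1.52-fold, adjusted p = 0.000563).

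Lars, the leucyl-tRNA synthetase, which also acts in leucine sensing, had 0 h signals of 9.42, 9.33, 9.49, 9.57 and 9.42. At 24 h the lowest, median and highest signals of Lars were 9.60, 10.08 and 10.22, and at 48 h 9.86, 10.01 and 10.09. The lowest 24 h array, just above the 0 h arrays, was replicate 5. Lars rose by 0.57 ± 0.10 (1.49-fold, adjusted p = 0.000512) and 0.54 ± 0.10 (1.45-fold, adjusted p = 0.0011).

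The other 3 of these genes, Iars, Kars and Qars, did not pass at either time with the probe set used. Kars, which makes the cytosolic and the mitochondrial lysyl-tRNA synthetase, had 0 h signals of 9.70, 9.52, 9.36, 9.55 and 9.51. Its lowest, median and highest signals were 9.47, 9.57 and 9.75 at 24 h, and 9.56, 9.77 and 9.82 at 48 h. The Kars arrays of all 3 times overlapped, with log2 differences of 0.057 ± 0.08 (adjusted p = 0.765) and 0.19 ± 0.08 (adjusted p = 0.132). The 95% interval at 24 h ran from -0.10 to 0.22.

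Qars, the glutaminyl-tRNA synthetase, is cytosolic only, as mitochondria make glutaminyl-tRNA by amidation. Its 0 h signals were 9.93, 9.85, 9.57, 9.75 and 9.61. The lowest, median and highest signals of Qars were 9.78, 9.85 and 9.91 at 24 h, and 9.59, 9.86 and 10.00 at 48 h. The 24 h arrays lay within the span of the 0 h arrays, and the log2 differences were 0.10 ± 0.08 at both times (adjusted p = 0.542 and 0.528). Iars, the isoleucyl-tRNA synthetase, had log2 differences of 0.22 ± 0.11 (adjusted p = 0.291) and 0.26 ± 0.11 (adjusted p = 0.169).

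Of the 12 cytosolic genes whose enzymes work outside the complex, 9 rose at 24 h and 8 at 48 h (medians 0.54 and 0.55). Tars, the threonyl-tRNA synthetase, had 0 h signals of 8.57, 8.58, 8.94, 8.37 and 8.98. Its lowest, median and highest signals were 9.27, 9.61 and 10.12 at 24 h, and 8.84, 9.55 and 9.91 at 48 h. The 24 h arrays lay above all 0 h arrays, and at 48 h replicate 4 fell within them. Tars rose by 0.99 ± 0.18 at 24 h (adjusted p = 0.00105) and by 0.83 ± 0.18 at 48 h (1.77-fold, adjusted p = 0.00538).

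Aars, the alanyl-tRNA synthetase, had 0 h signals of 10.10, 9.86, 9.93, 10.01 and 10.23. For Aars the lowest, median and highest signals were 10.69, 10.99 and 11.15 at 24 h, and 10.87, 10.99 and 11.07 at 48 h. No 0 h array reached the later arrays, and the 48 h arrays lay within the span of those at 24 h. Aars rose by 0.95 ± 0.08 at each time (1.93-fold, adjusted p = 5.46e-07 at 24 h and 6.56e-07 at 48 h).

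Sars, the seryl-tRNA synthetase, had 0 h signals of 10.45, 10.23, 10.20, 10.20 and 10.44. The lowest, median and highest signals of Sars were 10.80, 11.08 and 11.22 at 24 h, and 10.77, 11.10 and 11.37 at 48 h. Again no later array reached the 0 h span. The differences were 0.75 ± 0.10 (1.68-fold, adjusted p = 4.6e-05) and 0.79 ± 0.10 (1.73-fold, adjusted p = 3.61e-05).

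Yars, the tyrosyl-tRNA synthetase, had 0 h signals of 7.52, 7.53, 7.53, 7.66 and 7.55. Its lowest, median and highest signals were 8.12, 8.29 and 8.40 at 24 h, and 8.17, 8.22 and 8.33 at 48 h. The arrays of each time lay close together, far from those at 0 h. With the probe sets used, Yars had the lowest adjusted p of the family at 24 h, 3.82e-07, for a difference of 0.73 ± 0.06 (1.66-fold). At 48 h it stood 0.67 ± 0.06 higher (1.59-fold, adjusted p = 1.29e-06).

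Wars, the tryptophanyl-tRNA synthetase, is also an interferon-inducible gene. Its 0 h signals were 8.79, 8.57, 8.99, 8.73 and 8.66. The lowest, median and highest signals of Wars were 8.97, 9.36 and 9.57 at 24 h, and 9.23, 9.31 and 9.42 at 48 h. The lowest 24 h array was just below the highest 0 h array, and at 48 h the groups did not overlap. Wars rose by 0.60 ± 0.09 (1.51-fold, adjusted p = 0.000318) and by 0.57 ± 0.09 (1.49-fold, adjusted p = 0.000604).

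Gars, which makes the cytosolic and the mitochondrial glycyl-tRNA synthetase, had 0 h signals of 10.38, 10.30, 10.20, 10.32 and 10.25. For Gars the lowest, median and highest signals were 10.73, 10.75 and 10.87 at 24 h, and 10.80, 10.82 and 10.86 at 48 h. The spread at each later time was small (SD 0.05 and 0.03, n = 6 each), and no array overlapped those at 0 h. The rises were modest in size, 0.48 ± 0.05 (1.40-fold, adjusted p = 5.1e-06) and 0.54 ± 0.05 (1.45-fold, adjusted p = 2.11e-06).

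Cars, Nars and Hars rose less firmly. Nars, the asparaginyl-tRNA synthetase, rose by 0.38 ± 0.09 (1.30-fold, adjusted p = 0.00896) and 0.45 ± 0.09 (1.37-fold, adjusted p = 0.00239), with no overlap at either time. Without the 0 h and 24 h arrays that stood apart its adjusted p at 24 h was 0.0521, and with the acinar marker mean as a covariate it was 0.0885 at 48 h. Its 0 h signals were 10.99, 11.01, 10.66, 10.98 and 10.81, against 11.10 to 11.49 at 24 h and 11.21 to 11.56 at 48 h.

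Hars, the histidyl-tRNA synthetase, had 0 h signals of 9.89, 10.04, 9.89, 10.20 and 9.84. It had 10.15 to 10.46 at 24 h and 10.20 to 10.69 at 48 h. Both later times overlapped with 0 h. Hars rose by 0.32 ± 0.09 at 24 h (1.25-fold, adjusted p = 0.0346) and 0.49 ± 0.09 at 48 h (1.41-fold, adjusted p = 0.00163). The 24 h call was lost with the replicate block (adjusted p = 0.0654) and without any of 0 h replicates 1, 3 or 6 or 24 h replicates 3, 4 or 5 (adjusted p from 0.0552 to 0.0929), and without both arrays that stood apart it was 0.110.

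Cars, the cysteinyl-tRNA synthetase, had 0 h signals of 5.41, 5.62, 6.17, 5.48 and 5.60, against 5.94 to 7.18 at 24 h and 5.81 to 6.62 at 48 h. Replicate 3 at 0 h lay within the later arrays, and the other 0 h arrays lay below them. Cars rose by 0.83 ± 0.21 at 24 h (1.77-fold, adjusted p = 0.0174). At 48 h the difference was 0.63 ± 0.21 (adjusted p = 0.0738). With the replicate block the 48 h adjusted p was 0.0383, and without both arrays that stood apart it was 0.0241. Leaving out single arrays gave 0.0375 without 0 h replicate 3 and 0.0416 without 24 h replicate 6. It also gave 0.0460 without 48 h replicate 2, but 0.159 without 0 h replicate 4. Another probe set of Cars was under the table's median on 8 arrays. Its differences were 0.36 at 24 h (adjusted p = 0.0259) and 0.19 at 48 h (adjusted p = 0.285).

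The remaining cytosolic genes did not pass at either time. Vars, the valyl-tRNA synthetase, had log2 differences of 0.23 ± 0.11 (adjusted p = 0.221) and 0.19 ± 0.11 (adjusted p = 0.328), and at 24 h it passed without 24 h replicate 5 (0.31, adjusted p = 0.0417) and without both arrays that stood apart (0.36, adjusted p = 0.0266). Farsa and Farsb encode the subunits of the phenylalanyl-tRNA synthetase. Farsa had differences of 0.085 ± 0.11 and 0.32 ± 0.11 (adjusted p = 0.765 and 0.0929) and passed at 48 h without 48 h replicate 4 (0.38, adjusted p = 0.0352). Farsb had differences of 0.13 ± 0.10 and 0.0065 ± 0.10 (adjusted p = 0.516 and 0.982).

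**Figure D2:**
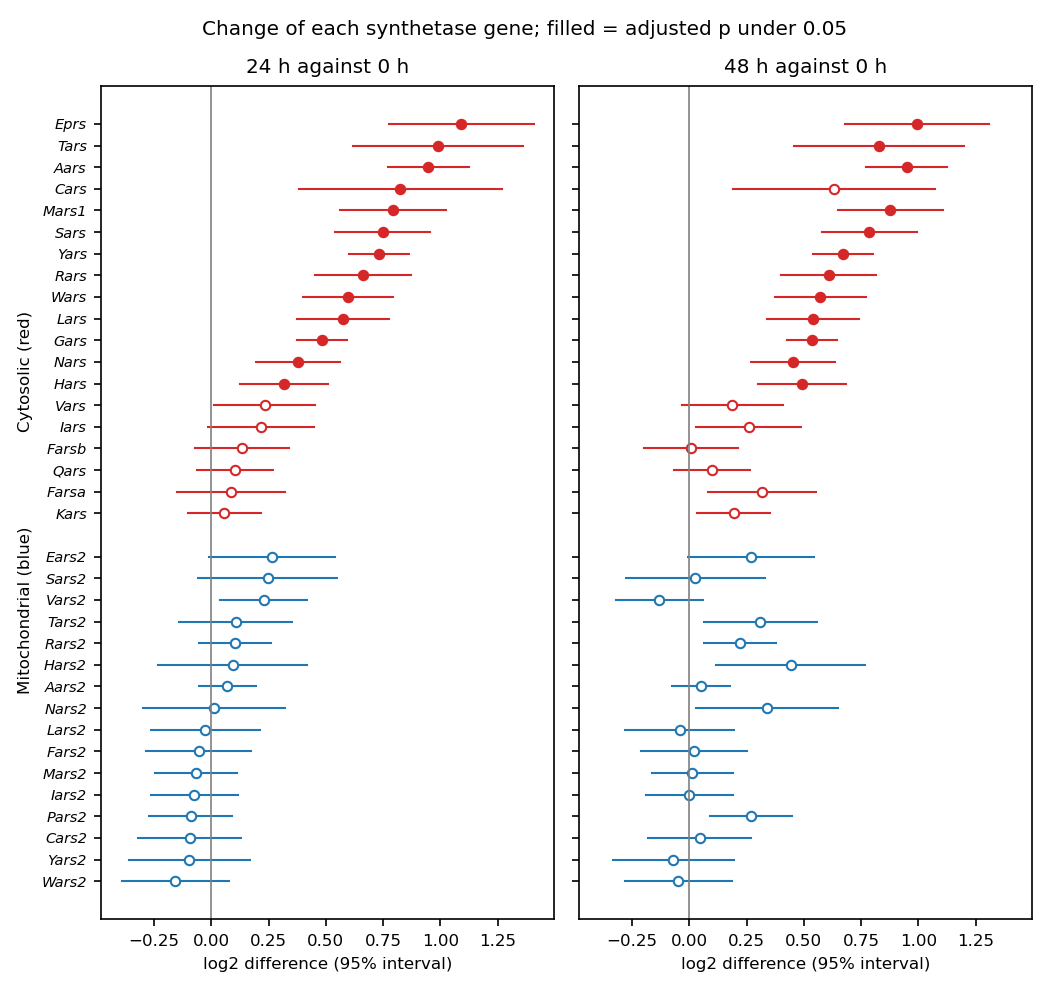
Log2 difference of each synthetase gene against 0 h with its 95% interval from limma, at 24 h (left) and 48 h (right), cytosolic genes in red and mitochondrial genes in blue. Filled points had an adjusted p under 0.05: 13 cytosolic genes at 24 h and 12 at 48 h, and 0 mitochondrial genes at both times.

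Grouped by catalytic fold, with Eprs counted by its glutamate part (its proline part is class II), 7 of 10 class I and 6 of 9 class II cytosolic genes rose at 24 h, and 6 of 10 and 6 of 9 at 48 h. Of the 13 cytosolic genes known from other work as ATF4 targets, 11 rose at 24 h and 10 at 48 h (medians 0.73 and 0.63), all but Iars and Vars at 24 h. Of the 6 not so known, Hars and Rars rose at both times (medians of the 6, 0.12 and 0.26), and Farsa, Farsb, Kars and Qars did not pass. These classes were set with earlier results of these arrays known, and the differences between them were not tested.

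The 16 mitochondrial genes are described next. The 95% intervals of their log2 differences ran from -0.39 at the lowest to 0.55 at the highest at 24 h, and from -0.33 to 0.77 at 48 h. All Mars2 signals were under the table's median, where signal was not separated from background. The largest difference was in Hars2, the mitochondrial histidyl-tRNA synthetase, with 0 h signals of 6.16, 6.29, 6.11, 5.98 and 5.99. Its lowest, median and highest signals were 5.59, 6.18 and 6.65 at 24 h, and 6.32, 6.53 and 6.87 at 48 h.

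The 24 h arrays of Hars2 spanned those at 0 h on both sides. The 48 h arrays lay above all 0 h arrays and overlapped with those at 24 h. The differences were 0.093 ± 0.16 (adjusted p = 0.822) and 0.44 ± 0.16 (adjusted p = 0.0901). Hars2 passed at 48 h without 24 h replicate 6 (adjusted p = 0.0353) and in the fit of the 0 h and 48 h arrays alone (adjusted p = 0.0138).

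Nars2, the mitochondrial asparaginyl-tRNA synthetase, had 0 h signals of 6.93, 6.91, 6.67, 6.76 and 6.68. For Nars2 the lowest, median and highest signals were 6.30, 6.92 and 7.17 at 24 h, and 6.66, 7.17 and 7.43 at 48 h. All 3 times overlapped, although 48 h exceeded 0 h in 5 of 5 batches. The differences were 0.010 ± 0.15 (adjusted p = 0.981) and 0.34 ± 0.15 (adjusted p = 0.187). With the replicate block the 48 h difference was 0.43 (adjusted p = 0.00656), which made it the mitochondrial gene called in that fit.

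Tars2, the mitochondrial threonyl-tRNA synthetase, had 0 h signals of 5.98, 6.04, 5.78, 5.97 and 6.19. For Tars2 the lowest, median and highest signals were 5.85, 6.14 and 6.32 at 24 h, and 5.97, 6.29 and 6.57 at 48 h. The times overlapped. The differences were 0.11 ± 0.12 (adjusted p = 0.709) and 0.31 ± 0.12 (adjusted p = 0.120), and Tars2 passed at 48 h without 48 h replicate 1 (0.38, adjusted p = 0.0484).

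Ears2, the mitochondrial glutamyl-tRNA synthetase, had 0 h signals of 4.80, 4.62, 4.94, 5.13 and 5.25. Its lowest, median and highest signals were 4.96, 5.17 and 5.48 at 24 h, and 4.86, 5.21 and 5.45 at 48 h. Arrays of the 3 times overlapped. The differences were 0.27 ± 0.13 at each time (adjusted p = 0.275 and 0.244), and another probe set of Ears2 differed in the other direction, as described with the probe sets.

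Pars2, for proline, had differences of -0.09 ± 0.09 at 24 h and 0.27 ± 0.09 at 48 h (adjusted p = 0.649 and 0.0602), and it was 0.36 ± 0.08 higher at 48 h than at 24 h (adjusted p = 0.0586), in 6 of 6 batches. Without 48 h replicate 1 Pars2 passed against 0 h (0.32, adjusted p = 0.0201) and against 24 h (0.41, adjusted p = 0.0270), and without 0 h replicate 6 it passed likewise (0.33, adjusted p = 0.0182, and 0.36, adjusted p = 0.0407). Vars2, for valine, differed the other way with the probe set used, 0.23 ± 0.09 higher at 24 h (adjusted p = 0.147). It was then 0.36 lower at 48 h than at 24 h (log2 difference -0.36 ± 0.09, adjusted p = 0.0748), lower in all batches. Without 24 h replicate 3 that last difference was -0.42 (adjusted p = 0.0350). Another probe set of Vars2 differed by -0.03 at 24 h (adjusted p = 0.897) and by 0.13 between 48 and 24 h (adjusted p = 0.561). The direction of Vars2 thus depends on the probe set. Rars2, for arginine, had a 48 h difference of 0.22 ± 0.08 (adjusted p = 0.0792) and passed without 0 h replicate 3 (0.27, adjusted p = 0.0428) and without 48 h replicate 6 (0.27, adjusted p = 0.0191). Without both arrays that stood apart Rars2 passed as well (0.27, adjusted p = 0.0391).

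The other 9 mitochondrial genes were Aars2, Cars2, Fars2, Iars2, Lars2, Mars2, Sars2, Wars2 and Yars2. Sars2, for serine, had the largest of their differences, 0.25 ± 0.14 at 24 h (adjusted p = 0.386). Wars2, for tryptophan, had the lowest, -0.16 ± 0.11 at 24 h (adjusted p = 0.497). Aars2, for alanine, was the most tightly bounded at 24 h, with an interval from -0.06 to 0.20 around 0.07.

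For 13 amino acids a cytosolic gene was matched by symbol to a mitochondrial gene, and the difference of their changes was read within the arrays. Glutamate and proline, which share Eprs, and phenylalanine, with Farsa and Farsb, were left out. At 24 and 48 h Eprs differed by 1.09 and 0.99, Ears2 by 0.27 and 0.27, and Pars2 by -0.09 and 0.27. Farsa differed by 0.085 and 0.32, Farsb by 0.13 and 0.0065, and Fars2 by -0.055 and 0.020. Among the matched pairs, the cytosolic gene had the larger change in 13 of 13 at both times. The 95% interval of the difference, from the residual spread over 14 degrees of freedom, was above 0 in 10 pairs at 24 h and 11 at 48 h, and below 0 in 0. Mars2 was under the table's median on 17 arrays and Wars2 on 7, where a change can be missed. Without these, the cytosolic gene had the larger change in 11 of 11 pairs at both times, with the interval above 0 in 8 at 24 h and 9 at 48 h. The pairs whose interval held 0 at 24 h were those for histidine, asparagine and valine, and at 48 h those for histidine and asparagine. No p is given for these pairs, since the genes were grouped with results known.

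Alanine showed the pattern most evenly. Aars exceeded Aars2 in change by 0.88 (95% interval 0.71 to 1.04) at 24 h and by 0.90 (0.74 to 1.06) at 48 h. With the probe sets used, the widest gap at 24 h among the matched pairs was for cysteine, 0.92 (0.38 to 1.46) for Cars over Cars2. For methionine the gap was 0.86 (0.49 to 1.23) at 24 h. For histidine at 48 h it was 0.049 (-0.31 to 0.41), as Hars and Hars2 had like differences of 0.49 and 0.44 with the probe sets used. Another probe set of Hars was 0.94 higher at 48 h (adjusted p = 0.0031), and another of Hars2 differed by -0.096 (adjusted p = 0.779). The likeness of this pair thus depends on the probe set.

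**Figure D3:**
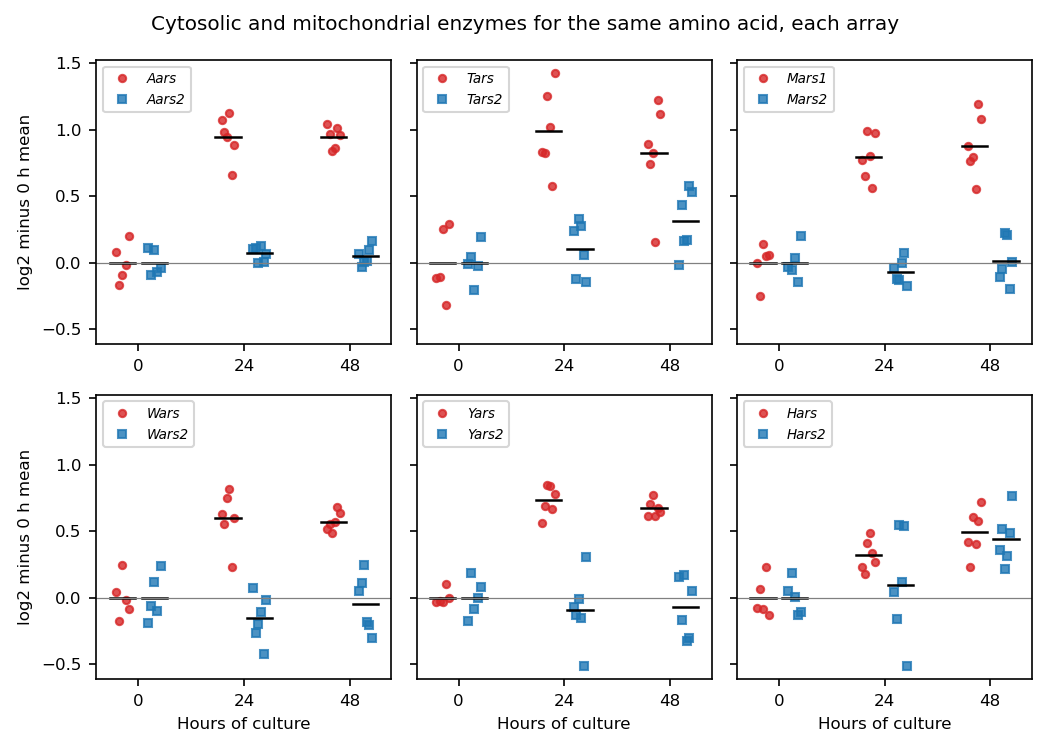
Log2 signal minus the gene's 0 h mean on each array at 0, 24 and 48 h of culture, for 6 amino acids with a cytosolic (red circles) and a mitochondrial gene (blue squares); black lines are means. Aars lies apart from Aars2 on every later array, with a gap of 0.88 at 24 h. With the probe sets used, Hars and Hars2 lie together at 48 h, with a gap of 0.049.

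Many of these genes had more than 1 probe set, 23 of the 35, and 72 probe sets in all. The 7 genes with more than 1 probe set among those that rose at 24 h had 11 others, of which 9 were higher at 24 h, 9 at 48 h and 0 lower at both. Other probe sets of Nars and Aars gave larger 24 h differences, 0.79 and 1.08, and those of Wars gave 0.54, 0.63 and 0.76. The other probe set of Cars gave a smaller one, 0.36 against 0.83. The differences of the 4 Eprs probe sets were 1.09, 0.84, 1.30 and 0.18, the last from a probe set whose signals were all under the table's median.

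Among cytosolic genes that had not risen, other probe sets passed for Iars and Qars at 48 h. Another probe set of Iars was 0.69 higher (adjusted p = 0.0032). For Qars another was 0.37 higher (adjusted p = 0.0061). The call of these genes at 48 h depends on the probe set.

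The 12 mitochondrial genes with more than 1 probe set had 16 others, of which 0 were higher at either time by limma, and at an unadjusted p under 0.05, 0 were higher and 3 lower at 24 h, and 1 was higher and 3 lower at 48 h. A probe set of Ears2 was lower at 24 h (-0.62 ± 0.13, adjusted p = 0.0053), opposite to the 0.27 of the probe set used, so no direction is given for Ears2. The other probe sets of Hars2 and Tars2 had 48 h differences of -0.096 and 0.30, and neither passed.

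**Figure D4:**
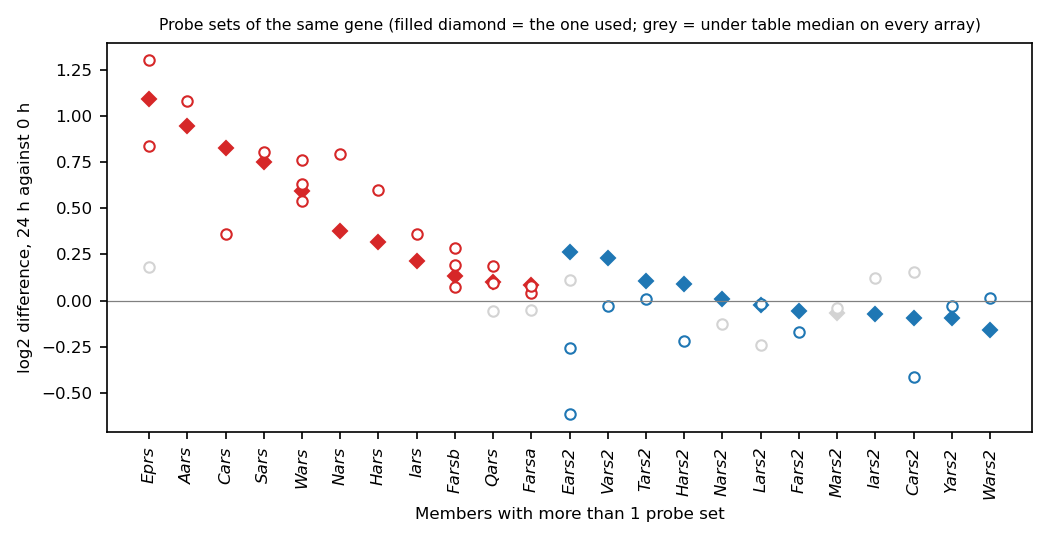
Log2 difference at 24 h against 0 h for every probe set of the 23 synthetase genes with more than 1, cytosolic in red and mitochondrial in blue, with the probe set used as a filled diamond. Grey marks probe sets with all signals under the table's median. The cytosolic probe sets of genes that rose lie above 0, while those of Ears2 lie on both sides of 0, from -0.62 to 0.27.

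Genes that act beside the synthetases moved in part. For this list and those below, the shares of all genes called higher were 5.44% at 24 h and 6.45% at 48 h, and lower 6.66% and 5.27%. Of 11 measured genes of the multisynthetase scaffold, synthetase-like proteins and tRNA handling, 3 rose at 24 h and 4 at 48 h (medians 0.17 and 0.18). Xpot, the exporter of tRNA from the nucleus, rose by 0.59 and 0.52 (adjusted p = 0.00019 and 0.00078). Eef1e1, a scaffold protein of the complex, rose by 0.36 at both times (adjusted p = 0.0026 and 0.0032). Dtd2, which removes wrongly attached amino acids from tRNA, rose at 24 h (0.33, adjusted p = 0.036), and Aarsd1, an editing protein related to the alanyl enzyme, rose at 48 h (0.64, adjusted p = 0.020). Aimp1, another scaffold protein, rose at 48 h (0.37, adjusted p = 0.0044).

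The genes of the steps after charging were followed as well. Over all genes, 5.44% were called higher at 24 h and 6.45% at 48 h. At an unadjusted p under 0.05 by limma the shares higher were 11.2% and 12.8%. These lists hold few genes, and their counts were not tested against those shares. Of 7 cytosolic elongation factor genes, 0 passed at either time by limma, with 1 higher at each time at an unadjusted p under 0.05 (medians 0.056 and 0.053). Of 11 genes of mitochondrial glutaminyl-tRNA amidation, initiation and elongation, 0 passed at 24 h by limma (2 higher at an unadjusted p under 0.05) and 2 rose at 48 h, Gfm2 (0.79, adjusted p = 0.0019), which acts in ribosome recycling, and the initiation factor gene Mtif2 (0.38, adjusted p = 0.025). Of 11 genes that sense uncharged tRNA or control eIF2, 2 rose at both times, Impact, an inhibitor of GCN2 activation (0.36 and 0.42, adjusted p = 0.044 and 0.020), and Eif2b3, a subunit of the eIF2 exchange factor (0.28 and 0.39, adjusted p = 0.033 and 0.0041). Eif2ak4, which encodes GCN2, the kinase that binds uncharged tRNA, did not pass (0.03 and -0.06, adjusted p = 0.95 and 0.88).

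Most other genes of the amino acid and ATF4 response rose. Of 36 measured, 29 rose and 1 fell at 24 h, and 28 rose and 0 fell at 48 h (medians 0.92 and 0.89). The largest were Trib3, a pseudokinase (3.56 at 24 h), Nupr1, a stress protein of chromatin (2.36), Psat1, of serine synthesis (2.22), Gpt2, an alanine aminotransferase (1.83, and 2.22 at 48 h), Chac1, which degrades glutathione (2.03), and the cationic amino acid transporter Slc7a3 (1.94). Atf4 itself rose by 0.48 and 0.43 (adjusted p = 0.017 and 0.032), and Asns, the asparagine synthetase, by 0.95 and 0.91. Cbs, of cysteine synthesis, was the gene that fell, by 0.57 at 24 h (adjusted p = 0.019).

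Interferon response genes were followed because Wars responds to interferon. Of 18 measured, 12 rose and 1 fell at 24 h, and 3 rose and 2 fell at 48 h (medians 1.21 and 0.18), and 4 were lower at 48 h than at 24 h. Gbp6, Ifit3, Gbp2, Irf7, Gbp3 and Cxcl10 had 24 h differences of 2.78, 1.67, 1.64, 1.57, 1.57 and 1.46, and 48 h differences of 1.84, 0.09, 0.50, 0.36, 0.40 and 0.18. Wars differed by -0.02 ± 0.09 between 48 and 24 h (adjusted p = 0.952).

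**Figure D5:**
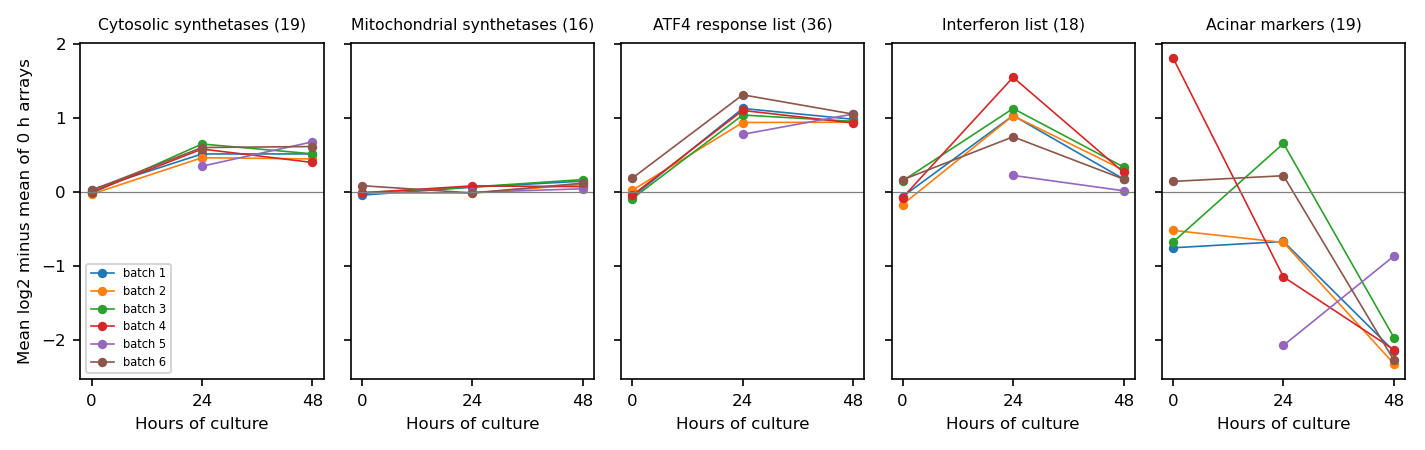
Mean log2 signal of each gene list on each array at 0, 24 and 48 h of culture, minus the mean of the 0 h arrays, with lines joining arrays of the same batch. The cytosolic synthetases and the ATF4 response list lie above the mean of the 0 h arrays at 24 h and 48 h in every batch. Batch 5 has no 0 h array here. The interferon list is highest at 24 h, and the acinar markers vary widely and are lowest at 48 h except in batch 5.

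Markers of cell types moved too, and in bulk RNA fewer cells of a type and less RNA per cell cannot be told apart. Of 19 markers of acinar cells, the exocrine cells that can remain attached to isolated islets, 2 fell at 24 h and 8 at 48 h. Their mean signal was 5.25 to 7.82 at 0 h, 3.93 to 6.66 at 24 h and 3.68 to 5.14 at 48 h, spans that overlap between 0 h and 24 h. The mean of the 19 cytosolic synthetase genes was 8.86 to 8.92 at 0 h, 9.24 to 9.54 at 24 h and 9.29 to 9.57 at 48 h, with no overlap with 0 h. With the acinar mean as a covariate, 13 synthetase genes were higher at 24 h and 11 at 48 h, and the cytosolic median at 48 h was 0.68.

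Of 11 beta cell markers 7 fell at 24 h and 5 at 48 h (array means 10.20 to 10.34 at 0 h, 9.74 to 10.04 at 24 h, 9.97 to 10.10 at 48 h). Of 6 markers of other endocrine cells 4 and 1 fell (9.14 to 9.97, 8.45 to 9.16, 8.37 to 9.51). Of 15 macrophage markers 1 rose and 7 fell at 24 h, and 2 rose and 4 fell at 48 h (5.24 to 5.83, 4.78 to 5.22, 5.06 to 5.49). Of 13 endothelial markers 1 rose and 5 fell at 24 h, and 8 fell at 48 h (5.27 to 5.56, 4.84 to 5.03, 4.39 to 4.75). Of 11 stellate cell and fibroblast markers 4 fell at 24 h, and 3 rose and 1 fell at 48 h (4.65 to 4.96, 4.10 to 4.27, 4.54 to 4.83). The part of these shifts in the synthetase values was not tested.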

How the data were processed

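RNA of 17 islet samples (5 at 0 h, 6 at 24 h, 6 at 48 h) was measured on 17 single-colour arrays. The deposited values are log2 signals, and the submitters' processing notes name RMA (no version) as the tool. Its quantile step removes shifts shared by most transcripts, and weak signals differ by less than their transcripts do. That the logarithm has base 2 was read from the span of the values, 1.55 to 13.81. No detection call was used, and the number of arrays limits the precision.

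Of 45101 probe sets, 64 controls were left out and 45037 tested, of which 34945 had 1 gene symbol, 932 several and 9160 none listed. limma 3.58.1 in R 4.3.3 (lmFit with 1 mean per time over 17 arrays, eBayes, Benjamini-Hochberg adjustment) was checked on simulated data. Numbers after ± are limma's SE unless SD is written. Batches are separate islet pools, but the times of a batch share a pool. The members and lists were chosen with earlier results of these data known.

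Named array by array were the 10 largest changes that passed without overlap, the 4 largest mitochondrial differences, Gars, Kars, Wars and Qars, and elsewhere up to 6 passing genes of a list. Cars, Nars, Hars, Pars2, Vars2, Rars2, Atf4, Asns and Eif2ak4 were added after their values were seen. Pairing by batch comes from the design text: arrays sharing a batch (16 pairs) had a median correlation of deviations of 0.0055 (-0.16 to 0.27), above 0.1 in 4, and those of different batches (80 pairs) -0.0098. Promoter sequences are from RefSeq, GRCm38.p6. A further planned motif is not reported here. The alternatives were a fixed and a random block for batch, complete batches, leaving out 2 arrays that stood apart or each array in turn, an acinar covariate, array weights, another variance prior, other scalings, a filter on level, other choices of probe set and fits of only the times compared.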

Additional observations from a re-analysis of the deposited data

Results flagged for a closer look

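Of 105 groups of arrays (35 genes at 3 times), 5 held an array far from the others of its time by Dixon's criterion, and chance gives about 5% of groups. At 0 h, replicate 3 had a Cars signal of 6.17 while the rest had 5.41 to 5.62, and replicate 4 a Yars signal of 7.66 while the rest had 7.52 to 7.55. At 24 h, replicate 5 had a Farsb signal of 9.80 while the rest had 10.15 to 10.32. At 48 h, replicate 1 had a Pars2 signal of 5.67 while the rest had 5.92 to 6.02, and replicate 6 a Rars2 signal of 9.08 while the rest had 9.31 to 9.44.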

How the results depend on the processing

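Values of single genes under 14 alternatives and 17 fits that each left out 1 array numbered 3216. Of these, 3017 kept their direction and side of the threshold. A call was lost in 12, gained in 37 and made in the opposite direction in 1 (Ears2), over 14 genes with Ears2 included. Another 149 were uncalled in both fits, with the sign turned. Of the genes that rose, 11 kept the call under every alternative and fit at 24 h (all but Hars and Nars) and 11 at 48 h (all but Nars). With the second probe set, which 23 genes have, 6 genes were higher and 1 lower at 24 h, the cytosolic median at 48 h was 0.69, and the 24 h difference of Ears2 was -0.62. The acinar covariate gave a cytosolic median of 0.68 at 48 h. Mitochondrial genes higher at 48 h numbered 1 with complete batches, the times compared alone, the replicate block or without the 2 arrays that stood apart, and 2 with the mean of probe sets or median centring. Leaving out 1 array gave 0 to 2. Between 48 and 24 h, 1 gene, which was mitochondrial (Pars2), was higher with the mean of probe sets or median centring. Leaving out 1 array gave 0 to 1 gene higher, 0 to 1 mitochondrial gene higher and 0 to 1 gene lower. Leaving out 1 array gave 12 to 13 genes higher at 24 h and 12 to 14 at 48 h. The replicate block changed the calls of Hars at 24 h and of Cars and Nars2 at 48 h, and no other. The second probe set covers fewer genes, and the cause of the other shifts was not tested. Signals near the table's median were not separated from background, which limits Mars2 and Wars2.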
